A study of Mus musculus with 5 samples.

Results

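DNaseI hypersensitive sites (DHSs) that were absent from mesoderm, present in the hemangioblast and still present in hemogenic endothelium and in hematopoietic progenitors formed a set of 898 regions, out of 68846 regions found in any of 5 stages of blood cell differentiation (1.30%). Members were chosen from the deposited site lists alone. Every site was replaced by the 500 bp centred on its middle, whatever its own width. Such windows, whichever stage they came from, were joined into merged regions wherever they shared at least 25% of their length, and a region was kept if it held a window of the hemangioblast (HB), of the hemogenic endothelium (HE) and of the progenitors (HP) and none of the mesoderm (MES). A window of the macrophages (MAC) was neither required nor forbidden, and 361 members had one while 537 did not.

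All 5 populations were mouse cells of strain 129, derived in culture from embryonic stem cells with a GFP reporter in Brachyury, a mesodermal T-box gene. MES cells were sorted as GFP+ and Flk1-, HB cells as GFP+ and Flk1+, HE cells as GFP+, Tie2+, cKit+ and CD41-, HP cells as CD41+, and MAC cells as CD11b+ after further culture of CD41+ cells. Each stage was represented by 1 list of sites, and the MAC list was labelled with both of its replicates, so no spread between replicates could be computed for any stage. The lists held 21949 (MES), 24729 (HB), 33305 (HE), 17734 (HP) and 37456 (MAC) sites and gave a start and an end for each, without read counts. Aligned reads per experiment are reported in the study's supplement and were not used here. Absence from a list therefore means only that no site was called there. All intervals given here are 95% intervals (Wilson for a share, Newcombe for a difference of shares) and cover counting error over regions only. The genes of the sorting markers were looked up in the lists, with a site within 1 kb of a transcription start site (TSS) taken as an open promoter. T, which encodes Brachyury, had such a site in MES and HB, Tek (Tie2) in HE, Itga2b (CD41) in HE and HP, and Itgam (CD11b) in MAC, while Kit had one in every list except MAC and Kdr (Flk1) in all 5.

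Enhancers and promoters that are bound by transcription factors lose their tight packing into nucleosomes and become sensitive to DNase I, so a list of DHSs maps candidate regulatory elements of a cell type. The hemangioblast is a mesodermal cell with blood, endothelial and smooth muscle potential. It gives rise to the hemogenic endothelium, which turns into blood progenitors through the endothelial-hematopoietic transition. GATA2, TAL1 (which binds E-boxes as a complex with GATA factors, LMO2 and LDB1), FLI1 and RUNX1 are known regulators of these steps, and TEAD factors are the DNA-binding partners of YAP in the Hippo pathway.

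The sequences of members at 3 genes with known roles in these steps are shown as examples of members with and without the motifs compared here, together with 1 member near Tead1 that was chosen after its values were seen. Members were assigned to genes by nearest TSS within 100 kb, and Lmo2, Gata2, Kit, Fli1 and Itga2b, which were looked up in the same way, had no member. Each line gives the central 300 bases of the member, plus strand of mm10, 5′ to 3′. Capitals mark matches on either strand to the GATA consensus AGATAA, the E-boxes CAGATG and CAGCTG, the RUNX consensus TGTGGT, the TEAD consensus CATTCC or the SP1 consensus GGGCGG. Capitals run together where matches overlap or touch.
Kdr, intron, 16.1 kb downstream of the TSS, chr5:75962246-75962545: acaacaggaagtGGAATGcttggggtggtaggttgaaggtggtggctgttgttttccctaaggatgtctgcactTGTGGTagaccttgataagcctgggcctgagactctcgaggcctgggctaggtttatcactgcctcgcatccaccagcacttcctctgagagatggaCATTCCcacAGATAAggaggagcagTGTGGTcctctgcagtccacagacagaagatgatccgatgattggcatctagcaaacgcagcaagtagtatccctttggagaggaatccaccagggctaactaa
Runx1, intron of an upstream transcript, 18.4 kb upstream of the nearest coding TSS, chr16:92715588-92715887: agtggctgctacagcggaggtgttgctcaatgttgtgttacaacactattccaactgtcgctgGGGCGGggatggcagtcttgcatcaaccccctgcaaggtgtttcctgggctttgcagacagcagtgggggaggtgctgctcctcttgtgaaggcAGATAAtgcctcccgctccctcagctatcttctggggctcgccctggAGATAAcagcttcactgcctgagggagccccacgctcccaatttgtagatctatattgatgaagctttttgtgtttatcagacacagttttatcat
Tal1, intron, 0.561 kb downstream of the TSS, chr4:115056837-115057136: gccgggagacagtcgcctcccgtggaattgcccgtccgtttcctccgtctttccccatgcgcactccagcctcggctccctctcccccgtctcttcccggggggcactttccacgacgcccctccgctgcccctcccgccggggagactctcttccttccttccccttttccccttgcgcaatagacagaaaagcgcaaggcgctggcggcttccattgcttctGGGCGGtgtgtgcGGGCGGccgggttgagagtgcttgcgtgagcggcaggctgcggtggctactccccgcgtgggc
Tead1, between genes, 23.0 kb upstream of the TSS, chr7:112656202-112656501: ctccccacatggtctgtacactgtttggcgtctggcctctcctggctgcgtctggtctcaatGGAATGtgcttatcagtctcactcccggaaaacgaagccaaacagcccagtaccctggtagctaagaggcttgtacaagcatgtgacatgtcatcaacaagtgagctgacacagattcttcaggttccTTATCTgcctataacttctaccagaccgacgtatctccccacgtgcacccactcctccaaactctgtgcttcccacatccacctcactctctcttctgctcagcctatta
The Kdr member, in the gene for the VEGF receptor that also marked the HB sort, held 1 GATA match and 2 matches each of RUNX and TEAD in these bases. The Runx1 member held 2 GATA matches and 1 of SP1, and the Tead1 member 1 GATA and 1 TEAD match. The Tal1 member, a GC-rich promoter sequence (67.7% GC in these bases), held 2 SP1 matches and none of the other motifs searched for this display. A match is a description of the letters and was not tested for binding.

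TAL1 and GATA factors are known to bind DNA together where an E-box half-site, CTG, lies a short distance before AGATAA, and such pairs with 7 to 9 bases between both parts were searched as a separate pattern. Of the pairs in members of the named genes (the rule is given with the methods), 6 are shown here on the strand that reads CTG before AGATAA, with 6 bases on either side and both parts in capitals.
C77080, 4.33 kb downstream of the TSS, chr4:129234744-129234771, minus strand: ctgggcCTGgaccgccAGATAAggcgag
Cdrt4, 21.1 kb upstream of the TSS, chr11:62930043-62930071, minus strand: agatgtCTGtctggcagAGATAAgacact
Cpsf6, 40.9 kb upstream of the TSS, chr10:117417904-117417933, minus strand: aaatcaCTGaagggctgcAGATAAtaaaag
Irs2, 39.1 kb upstream of the TSS, chr8:11048010-11048038, minus strand: gaccagCTGgaccactgAGATAAgagtct
Irs2, 75.3 kb upstream of the TSS, chr8:11084123-11084151, minus strand: ctacatCTGgtgagcaaAGATAAgatgag
Irs2, 83.3 kb upstream of the TSS, chr8:11092154-11092182, minus strand: gaatgtCTGtgttgataAGATAAcgaacc
In 4 of these 6 pairs the gap was 8 bases. The 3 pairs near Irs2 lay in 3 separate members upstream of the gene, all without MAC.

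The chaining of windows was tight in most members. Each of the 898 members held 1 site of each of HB, HE and HP, and the merged regions were between 507 and 1243 bp long with a median of 668 bp. The middles of the HB and HP sites lay a median of 78 bp apart, and in 874 members these windows themselves shared the length needed for chaining. A MES window overlapped 19 members by less than that length, 11 of them by no more than 50 bp less, so these lay just inside the rule. Just outside it were 9 regions with all of HB, HE and HP whose MES window exceeded that length by under 50 bp. A deposited MES interval, which can be wider than the window, touched 24 members and lay within 1 kb of 41, and the median gap to the nearest MES interval was 16.2 kb.

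Most regions shared by HB, HE and HP were already in the MES list. Of 11566 regions with all of HB, HE and HP, 7.76% lacked MES and 92.2% had it. Conversely, among the 2515 regions with HB and HE but no MES, 35.7% were also in HP, and among the 3424 regions with HE and HP but no MES, 26.2% were also in HB. Of the 1138 regions shared by HB and HP without MES, 78.9% were also in HE. These shares follow from the lists that the rule used and are given as a description.

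Position and base composition were not used by the rule, and macrophage opening was neither required nor forbidden. MAC windows did take part in the joining of windows, and 3 of the regions with MES held their MES window only through a MAC window. The members were compared with 3 sets that differ from them by the presence or absence of 1 stage, each with or without MAC: the 10668 regions that also had MES, the 2526 regions with HE and HP but neither MES nor HB, and the 1617 regions with HB and HE but neither MES nor HP. Members were open in MAC in 40.2% (361 of 898, interval 37.0 to 43.4), against 54.4% of all merged regions. The latter share counts 21375 regions seen in MAC alone, which are open in MAC by definition, so it is not a like comparison. Regions with MES were open in MAC in 85.0%, a difference of -44.8 percentage points (interval -48.0 to -41.5). Regions with HE and HP but no HB reached 41.3%, within 1.13 points of the members (interval of the difference -4.83 to 2.63). When sites below their list's median width, MES sites included, were dropped, that difference was 15.1 points (interval 9.47 to 20.6). The set of regions then kept was largely different. Regions of HB and HE that were missing from HP were open in MAC in 18.6%, which was 21.6 points below the members (interval of the members' difference 17.9 to 25.3). The order was the same over 2 kb from a TSS, with 37.6% of members, 66.7% of the regions with MES and 18.1% of the regions without HP open in MAC.

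Members lay far from promoters more often than the regions with MES. A promoter was taken as within 2 kb of the TSS of a protein-coding gene, proximal as up to 20 kb and distal as beyond. Of the members, 182 were promoters (20.3%, interval 17.8 to 23.0), 309 were proximal (34.4%) and 407 distal (45.3%), and 24.0% of all merged regions were promoters. With MES, 77.6% were promoters, 57.3 points above the members (interval of the members' difference -59.9 to -54.4). With HE and HP but no HB the share was 8.12%, so that members exceeded it by 12.2 points (interval 9.41 to 15.1), and with HB and HE but no HP it was 21.5%, a difference of -1.25 points for members (interval -4.50 to 2.11). In all, 368 members had their centre in an intron, 441 between genes, 59 in a non-coding part of an exon and 30 in a coding exon.

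CpG-rich sequence followed the same order of sets as promoters. The middle 500 bp of a region counted as CpG-rich with a GC share from 0.5 upwards and an observed to expected CpG ratio from 0.6 upwards. This held for 12.6% of members (113 of 898, interval 10.6 to 14.9), 72.9% of the regions with MES, 2.69% of those with HE and HP but no HB and 18.4% of those with HB and HE, beside 18.2% of all merged regions. Among promoters, 49.5% of the 182 members were CpG-rich against 86.7% of the 8274 promoters with MES (difference -37.2 points, interval -44.5 to -30.0), 60.6% of promoters with HB and HE but no HP (difference -11.2 points, interval -19.9 to -2.29), 26.8% of promoters with HE and HP but no HB (difference 22.6 points, interval 12.97 to 31.7) and 65.9% of all promoter regions. Promoters of that kind among the members included Tal1 and Runx1t1, a corepressor gene of the ETO family, whereas the promoter members of Nfe2, a megakaryocyte and erythroid bZIP factor, and of Gja4, which encodes an arterial connexin, were not CpG-rich. These 3 results depended on which sites were kept. When the narrower sites, those below their list's median width, were dropped from each list, the rule returned 553 regions, of which 121 overlapped a member. Of the 553, 55.7% were open in MAC, 58.2% were promoters and 48.8% were CpG-rich. The cut also removed narrow MES sites, so a region with such a site could then count as lacking MES. Most of the 553 regions did not overlap a member, so their shares describe a largely different set. The CpG-rich difference from regions with HB and HE but no HP then turned from -5.78 points (interval -8.59 to -2.83) to 4.53 points (interval -0.501 to 9.56), and the promoter difference from the same regions from -1.25 to 7.21 points (interval 2.17 to 12.2). When each list was cut to its widest sites, as many as the HP list holds, 534 regions were returned, of which 394 overlapped a member. Of the 534, 25.8% were open in MAC, 31.8% were promoters and 21.5% were CpG-rich.

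**Figure D1:**
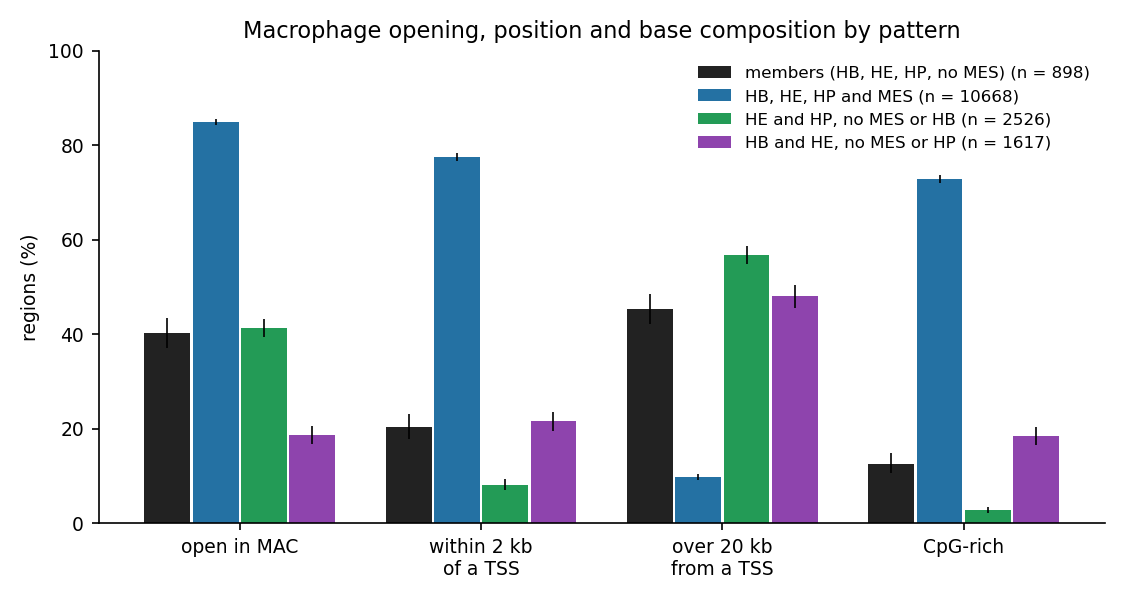
Share of regions (%) open in MAC, within 2 kb of a TSS, over 20 kb from a TSS and CpG-rich, for members (black) and 3 sets that differ from them in 1 stage; bars are shares and lines 95% Wilson intervals over regions, n as given in the key. Members lie far below the regions with MES in MAC opening (40.2% against 85.0%), promoters (20.3% against 77.6%) and CpG-rich sequence (12.6% against 72.9%).

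Members with and without MAC also differed in position. Of the 361 members still open in MAC, 25.5% were promoters, against 16.8% of the 537 that were not (difference 8.72 points, interval 3.31 to 14.3). The distal share was 36.3% against 51.4% (difference -15.1 points, interval -21.5 to -8.50), and the median distance to a TSS 10.4 kb against 21.2 kb. Promoters were also commoner with MAC among the regions with MES (82.4% against 50.2%) and among those with HE and HP (9.58% against 7.09%), while among those with HB and HE the shares were 23.6% and 21.0% (difference 2.54 points, interval -2.46 to 8.07), and the difference between these sets in that respect was not tested.

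Since the sets differed in their share of promoters, sequence motifs were counted in the 716 members and in all 52345 merged regions that lay over 2 kb from a TSS. A region counted once if its central 500 bp held an exact match on either strand. The GATA consensus AGATAA was found in 338 of the 716 members (47.2%, interval 43.6 to 50.9), against 27.3% of all such regions. Regions with MES held it in 17.3%, 29.9 points below members (interval 26.0 to 33.9), and regions with HB and HE but no HP in 38.1%, 9.07 points below (interval 4.54 to 13.6). Regions with HE and HP but no HB held it in 42.5%, a difference of 4.68 points (interval 0.525 to 8.85). In the largely different set kept without the narrower sites this difference was -3.63 points (interval -11.2 to 4.11). The same letters in reversed order, which have the same base composition, were found in 13.7% of members and 19.0% of all regions. The median GC content of members was 51.0%, between 49.2% for regions with HE and HP and 54.8% for regions with MES. Among regions with a GC share of 0.45 to 0.55, the GATA share was 49.8% in members and 22.6% in regions with MES.

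Members without a MAC site held GATA matches more often. The consensus was in 55.3% of the 447 non-promoter members without MAC and in 33.8% of the 269 with MAC, a difference of -21.4 points (with minus without, interval -28.5 to -14.0). The direction was the same in each of the other sets, at 14.9% with MAC against 22.1% without among regions with MES, 32.7% against 49.2% among those with HE and HP, and 26.5% against 40.7% among those with HB and HE. In 20.6% of non-promoter members without MAC the motif occurred in 2 or more copies, beside 10.0% of members with MAC and 5.41% of all regions. Among the 182 promoter members, 21.4% held the GATA consensus, against 6.01% of promoters with MES (difference 15.4 points, interval 10.1 to 22.0), 24.9% of promoters with HE and HP but no HB (difference -3.45 points, interval -11.7 to 5.03), 9.48% of promoters with HB and HE but no HP (difference 11.9 points, interval 5.54 to 18.98) and 9.52% of all promoter regions.

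The TEAD consensus CATTCC was found in 39.2% of members (281 of 716, interval 35.7 to 42.9), against 29.3% of all regions. It exceeded the regions with MES, at 29.2%, by 10.0 points (interval 6.08 to 14.1). Against regions with HE and HP (36.7%) and with HB and HE (36.9%) the differences were 2.58 points (interval -1.45 to 6.69) and 2.37 points (interval -2.06 to 6.83), both including 0. The reversed letters were in 16.1% of members and 15.6% of all regions. As with GATA, the share was higher in members without MAC (43.6%) than with MAC (32.0%), a difference of -11.7 points (with minus without, interval -18.7 to -4.30), and again the other 3 sets moved the same way. With the deposited intervals left at their own width this difference fell to -5.67 points (interval -12.5 to 1.37). GATA and TEAD occurred together in 19.4% of members, against 8.27% of all regions, and each was about as frequent with the other as without it: TEAD was in 41.1% of members with GATA and in 37.6% of members without.

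The paired pattern, CTG and then AGATAA after 7 to 9 bases, was found in 74 of the 716 members (10.3%, interval 8.31 to 12.8), against 3.54% of all regions. Regions with MES held it in 1.63%, 8.71 points below members (interval 6.60 to 11.2), and regions with HB and HE but no HP in 5.12%, 5.21 points below (interval 2.78 to 7.89). Regions with HE and HP but no HB held it in 11.8%, and their difference from members included 0 (-1.47 points, interval -3.92 to 1.28). Members without MAC held the pair in 13.2% and members with MAC in 5.58%. With each list cut to its widest sites this difference was -1.86 points (interval -8.78 to 7.40) in place of -7.62 (interval -11.7 to -3.19). Every paired match is also a GATA match. The reversed pattern was in 0.419% of members.

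RUNX and AP1 matches placed the members between the regions that lacked HP and those that lacked HB. RUNX (TGTGGT) was in 38.0% of members, close to the 37.3% of all regions, above the regions with HB and HE but no HP (30.3%, difference 7.65 points, interval 3.31 to 12.02) and below the regions with HE and HP but no HB (47.1%, difference -9.15 points, interval -13.2 to -5.01). AP1 (TGANTCA) showed the same order, with 29.5% in members, 17.8% without HP and 38.9% without HB (differences 11.7 points, interval 7.76 to 15.6, and -9.48 points, interval -13.3 to -5.52), and 27.2% of all regions. The reversed AP1 letters were in 11.7% of members, 12.8% without HP and 15.2% without HB (differences -1.03 points, interval -3.94 to 2.06, and -3.43 points, interval -6.07 to -0.512), and the reversed RUNX letters in 29.7%, 26.4% and 30.5% (differences 3.35 points, interval -0.733 to 7.52, and -0.799 points, interval -4.55 to 3.11). The PU.1 consensus GAGGAAGT, for the myeloid ETS factor encoded by Spi1, was in 11.5% of members with MAC and 4.47% of members without (difference 7.05 points, interval 3.02 to 11.7), beside 9.47% of all regions. Over members with and without MAC it was in 7.12%, against 9.996% of regions with HE and HP but no HB (difference -2.87 points, interval -4.98 to -0.457, which included 0 under 5 of the alternatives) and 5.99% of regions with HB and HE but no HP (difference 1.13 points, interval -1.07 to 3.56). The PU.1 difference between members with and without MAC was 2.41 points (interval -4.29 to 10.2) in the largely different set kept without the narrower sites. AP1 was also higher with MAC (35.3% against 26.0%, difference 9.37 points, interval 2.44 to 16.4), and its difference was 5.93 points (interval -0.469 to 12.5) with the deposited intervals left at their own width. In the neighbouring sets AP1 was in 49.05% with MAC against 32.0% without among regions with HE and HP but no HB, and in 25.7% against 16.1% among those with HB and HE but no HP. For PU.1 these shares were 14.9% against 6.61% and 8.70% against 5.39% (difference in the latter 3.31 points, interval -0.065 to 7.83). Among regions with MES the shares were 18.5% against 17.7% for AP1 (difference 0.877 points, interval -2.47 to 4.06) and 5.01% against 4.26% for PU.1 (difference 0.752 points, interval -1.15 to 2.43). The E-box CAGATG was in 39.4% of members, 42.2% of regions with HE and HP but no HB (difference -2.84 points, interval -6.89 to 1.30), 38.5% of regions with HB and HE but no HP (difference 0.851 points, interval -3.58 to 5.34) and 37.3% of all regions. CAGCTG was in 38.7% of members, 35.8% (difference 2.93 points, interval -1.09 to 7.03) and 33.1% (difference 5.59 points, interval 1.21 to 10.01) of the same sets, and 32.3% of all regions. SP1 (GGGCGG) was in 19.97% of members, 45.0% of the regions with MES and 14.6% of all regions, and its reversed letters differed by as much (20.1% against 45.3%). The ETS core AGGAAG, which the PU.1 consensus contains, was in 68.2% of members, 56.3% of the regions with MES, 73.1% of those with HE and HP but no HB and 66.2% of all regions. CTCF (AGGGGGC) was in 12.99% of members, 20.1% of the regions with MES, 8.23% of those without HB and 9.65% of all regions. Against regions with HB and HE but no HP, the interval of the CTCF difference included 0. The share of members was 16.6% for KLF (CACACCC) beside 13.1% of all regions, 41.8% for MEIS (TGACAG) beside 38.6%, and 18.7% for CEBP (TTGCNNAA) beside 22.8%. It was 8.80% for TCF7L (ATCAAAG) beside 7.78% of all regions, 7.54% for SOX (ACAATGG) beside 7.77%, 7.40% for FOX (TGTTTAC) beside 7.53%, 2.23% for T-box (AGGTGTGA) beside 2.54% and 1.54% for the octamer ATGCAAAT beside 2.68%. Of the 19 patterns, 13 were higher and 3 lower in members than in regions with MES by their intervals, and of the 19 reversed patterns 2 were higher and 3 lower. Against regions with HE and HP but no HB, 4 were higher and 4 lower, against regions with HB and HE but no HP 5 were higher and 0 lower, and against all other regions 7 were higher and 2 lower.

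**Figure D2:**
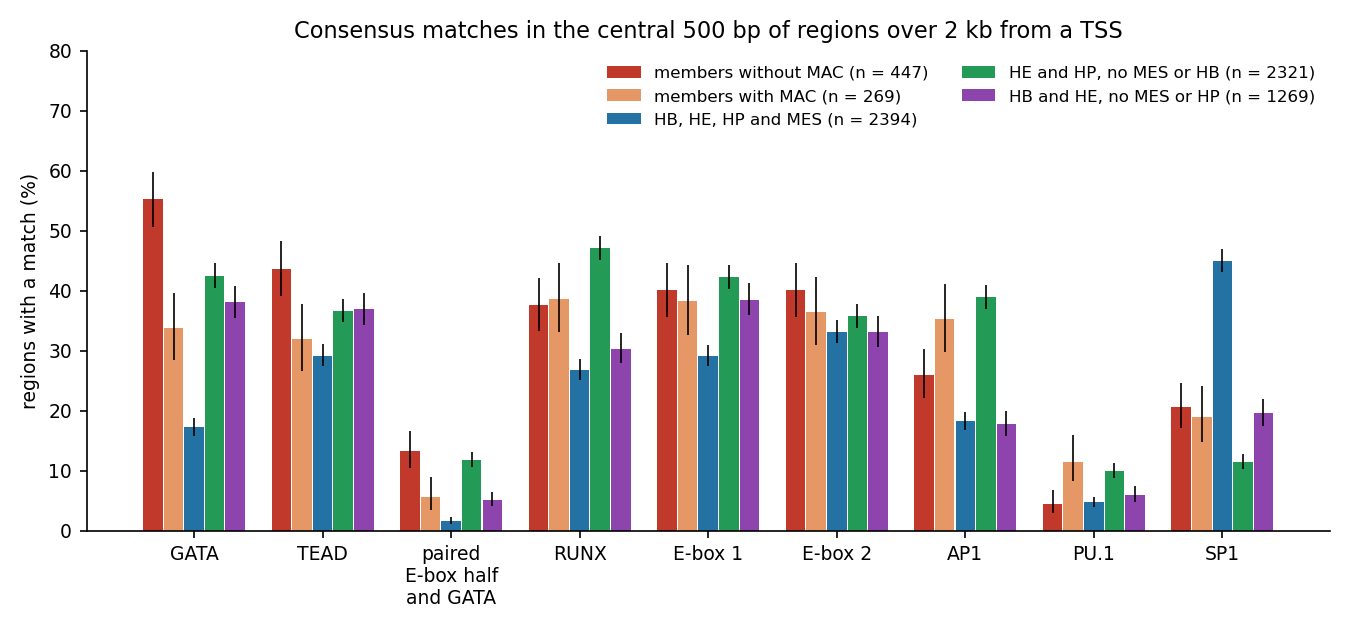
Share of regions over 2 kb from a TSS (%) with a match in the central 500 bp, by consensus, for members without MAC (red) and with MAC (orange) and for the 3 comparison sets; lines are 95% Wilson intervals over regions, E-box 1 is CAGATG and E-box 2 CAGCTG. The comparison sets hold regions with and without MAC together, and among regions without MAC alone TEAD was in 41.0% (HE and HP), 39.2% (HB and HE) and 38.2% (with MES), beside 43.6% of members (interval 39.1 to 48.3).

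The GATA and TEAD matches lay towards the middle of the members. In members without MAC there were 184 GATA matches within 100 bp of the region's centre and 106 between 150 and 250 bp from it, which are stretches of equal length, a ratio of 1.74. The ratio was 1.55 in members with MAC, 1.96 in regions with HE and HP but no HB, 1.03 in regions with MES and 1.18 in all regions. For TEAD it was 1.66 in members without MAC, 1.38 in members with MAC, 1.37 in regions with HE and HP but no HB, 1.15 in regions with MES and 1.20 in all regions. Of the 4 patterns examined in this way (RUNX was the other, with 1.31 in members without MAC), the paired pattern had the highest ratio, with 40 matches near the centre and 10 towards the edges in members without MAC, a ratio of 4. It was 5 in members with MAC (10 against 2 matches), 3.19 in regions with HE and HP but no HB (169 against 53) and 1.90 in all regions.

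**Figure D3:**
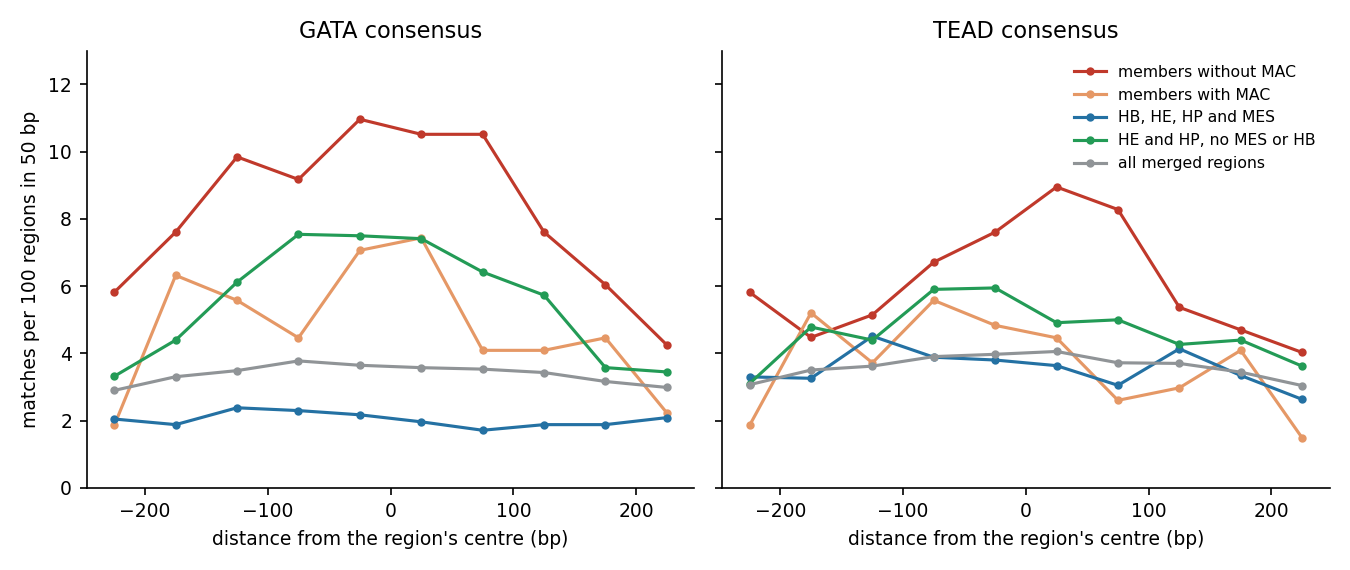
Matches to the GATA (left) and TEAD (right) consensus per 100 regions in bins of 50 bp, by distance from the region's centre, for regions over 2 kb from a TSS; each point is 1 bin of 1 set. The line of members without MAC peaks near the centre for GATA, at 11.0 matches per 100 regions, while the line of regions with MES stays between 1.71 and 2.38.

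Width is the only property of a site that the lists give, and the members' sites were narrow in HB and HP but not in HE. Their median widths were 700 bp in HB (quartiles 500 to 900), 1400 bp in HE (1100 to 1600) and 700 bp in HP (500 to 900). Within the whole list of each stage these medians stood at percentile 30.1 in HB, 63.5 in HE and 35.2 in HP, and the 361 MAC sites, with a median of 600 bp, at 54.4. The regions with MES had wider sites in each list, at percentiles 74.0, 78.7 and 62.2. In HB and HP the sets closest in pattern were as narrow, since regions with HB and HE but no HP had their median at percentile 30.1 in HB and regions with HE and HP but no HB at 26.2 in HP. In HE these sets stood at 42.4 and 49.5. The HE site was wider than the HB site in 821 of the 898 members (91.4%) and wider than the HP site in 851 (94.8%), while HP was wider than HB in 379 and equal in 120. The HE list held wider sites throughout (median 1200 bp against 900 bp for HB and for HP), and in regions with MES the HE site was wider than the HB site in 90.6%. Members with and without MAC had the same median widths in HB, HE and HP.

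**Figure D4:**
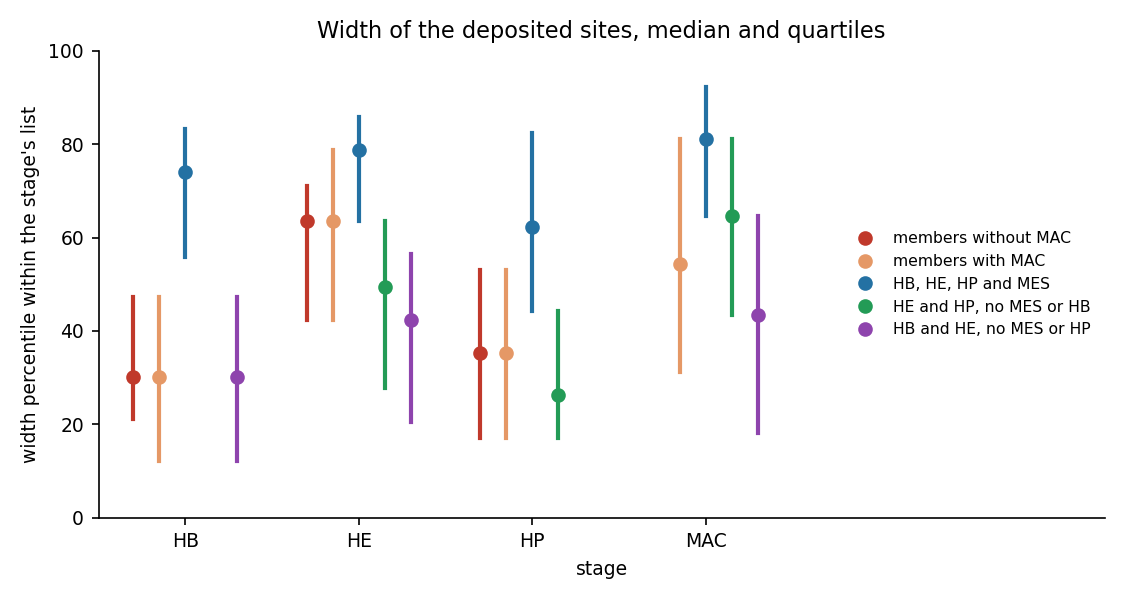
Width of the deposited sites as a percentile of all sites in the same stage's list, for members without MAC, members with MAC and the 3 comparison sets; points are medians and lines run between the quartiles. Members sit near percentile 30.1 in HB and 35.2 in HP and at 63.5 in HE, below the regions with MES in every list.

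Members were spread over many genes. By nearest protein-coding TSS within 100 kb, 793 members were assigned to 737 genes, which are 3.51% of the 21000 genes with a TSS in the annotation. Of these genes, 692 had 1 member, 37 had 2, 7 had 3 and 1 had 6, and 61 members had another member within 20 kb. The gene with 6 was Irs2, an adaptor of insulin and cytokine receptors, out of 29 regions of any stage assigned to it. Its members lay 39.1, 56.6, 75.3 and 83.3 kb upstream and 62.7 and 98.1 kb downstream of the TSS, all between genes. The members at 39.1, 75.3 and 83.3 kb upstream had no MAC site and held GATA, RUNX and the paired pattern, while the other 3 had a MAC site and no GATA match. Genes with 3 members were Cdrt4, Gm45915, Lta4h, Nfatc1, Ptpn1, Tead1 and Vgll4. The 3 members assigned to Gm45915 all lay inside Zmiz1. The other 7 of the 15 genes with most members (Adgra2, Adgre5, C77080, Capn5, Cbfa2t3, Cpsf6 and Csrp1) had 2 each and were taken in alphabetical order from the 37.

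The genes of 13 lists, drawn up for these tissues with earlier results of these data known, were read against the share of all assigned regions that were members, 1.33%. Transcription factors and cofactors of the TAL1 complex had 6 members among 124 regions (4.84%, interval 2.24 to 10.2), at 5 of 14 genes. Tal1 itself had its member in the first part of the gene, 0.561 kb downstream of a TSS, with site widths of 900 (HB), 1800 (HE), 1400 (HP) and 600 bp (MAC). Cbfa2t3, which encodes the corepressor ETO2, had members 0.216 and 21.1 kb upstream of its TSS, both with MAC, and the upstream one had wide sites in every list (HB 1300, HE 1900, HP 1500 and MAC 800 bp). The other genes of this list were Runx1t1 and Tcf3, an E-protein partner of TAL1, both without MAC, and Zfpm1, the GATA cofactor FOG1, whose intronic member 31.6 kb into the gene had a 2800 bp site in HE and held GATA and TEAD matches. Of the 6 members, 3 were promoters (Tal1, Runx1t1 and the nearer one of Cbfa2t3).

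Of 16 transcription factors whose binding the study had mapped or modelled, 6 had 1 member each among 146 regions (4.11%, interval 1.90 to 8.68). Runx1 had its member 18.4 kb upstream of its nearest coding TSS, inside the gene, with sites of 700, 1000, 900 and 900 bp in HB, HE, HP and MAC. The member of Gfi1, a repressor that takes part in the transition from endothelium to blood, lay 33.6 kb upstream in an intron of Evi5 and had no MAC site, and that of Meis1 lay 48.9 kb into its gene and was open in MAC. Spi1, Tal1 (above) and the pluripotency factor Esrrb, with a member 26.2 kb upstream of its nearest coding TSS, completed the 6.

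Endothelial genes had 9 members among 300 regions (3.00%, interval 1.59 to 5.60), at 8 of 36 genes, 2 of them with MAC. Sox7, a SoxF factor of early endothelium, had members 34.9 kb upstream, in an intron of Pinx1 and with a GATA match, and 14.3 kb downstream. Its relative Sox17 had a promoter member 0.726 kb downstream of the TSS, with widths of 800 (HB), 1600 (HE) and 500 bp (HP). Kdr had its intronic member (HB 400, HE 1600 and HP 800 bp), Pecam1, an endothelial adhesion molecule, 1 member 7.98 kb upstream with GATA and RUNX matches, and S1pr1, a sphingosine phosphate receptor, 1 at 73.0 kb with wide sites (1200, 1700 and 1600 bp). Egfl7 had a member in an intron, and the ETS factor Elk3 and Gja4 had promoter members with MAC sites.

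Hippo pathway and TEAD genes had 9 members among 129 regions (6.98%, interval 3.71 to 12.7), at 5 of 22 genes. Tead1, a TEAD factor, had 3 members, 23.0 kb upstream and 17.9 and 41.1 kb downstream, each with a TEAD match of its own. Vgll4, a TEAD cofactor that competes with YAP, had a promoter member and members 38.5 and 46.7 kb into the gene, all 3 with MAC. Tead4 (7.71 kb upstream), the kinase gene Lats2 (14.5 kb upstream, with a TEAD match) and Amotl2, which encodes a YAP-binding angiomotin (45.9 kb downstream), had 1 each, all without MAC. A TEAD match was in 4 of the 9, beside 39.2% of all members over 2 kb from a TSS. The count rests on 2 genes with 3 members each, and it was 1 without the narrower sites, 3 with each list cut to its widest sites and 4 when any coding TSS within 20 kb was used.

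Among the remaining lists, BMP and SMAD genes had 4 members of 171 regions (2.34%, interval 0.913 to 5.86), 2 at Smad6, an inhibitory SMAD, and 1 each at the receptor genes Acvrl1 and Bmpr1a, none with MAC. Erythroid and megakaryocyte genes had 4 of 113 (3.54%, interval 1.39 to 8.75), Tal1 and Zfpm1 (above) among them. Myeloid genes had 4 of 176 (2.27%, interval 0.887 to 5.70), at Spi1, the macrophage colony-stimulating factor receptor gene Csf1r, the cytokine receptor gene Csf2rb and Cd14, a coreceptor for lipopolysaccharide. The Csf1r member lay in an intron 22.1 kb into the gene and had sites of 700 bp, and 1400 bp in HE. Sorting marker genes had 1 member of 53 regions, at Kdr, and pluripotency genes 1 of 60, at Esrrb. Wnt and TCF genes (0 of 205 regions, upper bound 1.84%), Notch genes (0 of 147, upper bound 2.55%), primitive streak and mesoderm genes (0 of 127, upper bound 2.94%) and cardiac and smooth muscle genes (0 of 100, upper bound 3.70%) had none, and each of these upper bounds lay above the 1.33% of all assigned regions.

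**Figure D5:**
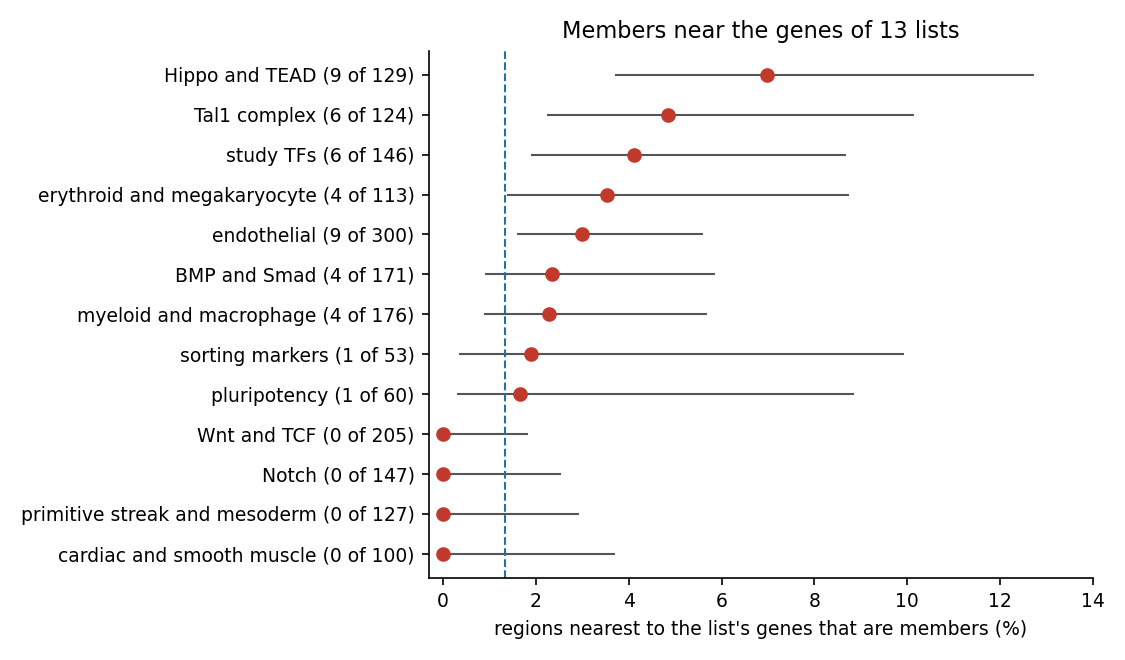
Share (%) of the regions nearest to the genes of each list that are members, with 95% Wilson intervals over regions; the counts beside each list are members of all its regions, and the dashed line is the 1.33% over all protein-coding genes. Under the main settings Hippo and TEAD genes stand highest at 6.98%, with an interval that overlaps those of other lists. Their count fell under alternatives given in the text, and 4 lists have no member.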

How the data were processed

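DNase I hypersensitive sites of 5 cell populations were taken from the lists the authors deposited, 1 per population. The deposited values are the start and end of each site, with no score, read count or p-value. According to the methods of the study, reads were trimmed with CutAdapt, aligned to mm10 with Bowtie keeping unique alignments, freed of duplicates with Picard and called with DFilter in bins of 100 bp, so widths come in steps of 100 bp. Tool versions are not given in the sources used here, and the submitters' processing notes also name HOMER. The study's supplement reports aligned reads per experiment, which were not used here. The macrophage list is labelled with both replicates.

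Interval middles stood in for summits. Regions were annotated with RefSeq genes on GRCm38.p6 (25999 coding TSSs of 21000 genes), the same build as mm10, and sequence was read from that genome. The 4 regions on the mitochondrial chromosome were not annotated. A region was assigned to the gene with the nearest coding TSS within 100 kb. Exact matches to 18 consensus sequences and to the CTG and AGATAA pair were counted on both strands of the central 500 bp, and the same letters reversed served as a comparison. Shares have 95% Wilson and differences 95% Newcombe intervals. With 1 list per stage no p-value was computed. Genes named are those of 13 lists (247 genes) that had a member and the 15 genes with most members, ties broken by symbol. Some items that this rule names are not reported here. Members and lists were chosen with earlier results of these data known. Alternatives changed the chaining overlap, the window, the width of sites, the distance from MES, the TSS set, the promoter reach, the sequence searched, the CpG-rich definition and the assignment to genes. The scripts were tested on simulated data. Python 3.11.15, numpy 2.4.6, pandas 2.3.3 and scipy 1.17.1 were used.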

Additional observations from a re-analysis of the deposited data

How the results depend on the processing

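Of 487 values of 54 results under 15 alternative settings, 425 stayed on their side of 0, near the first value or with an interval that still included 0, 41 moved, 18 differences came to include 0 and 1 came to exclude it with its sign kept. In all 10 differences changed sign, 2 whose interval had excluded 0 and 8 whose interval had included it, of which 2 came to exclude it. The cause of these changes was not tested. The settings that dropped narrower sites or kept the widest also removed MES sites, so regions with a removed MES site could enter the set. Of the 553 regions kept without sites below the median width, 121 overlapped a member. Of the 534 kept with the widest sites, 394 did. Without sites below the median width of their list, the number of regions was 553, the share open in MAC 55.7% (15.1 points above regions with HE and HP but no HB, a change of sign), promoters 58.2% (7.21 points above regions with HB and HE but no HP, a change of sign), CpG-rich 48.8% (4.53 points above regions with HB and HE but no HP, a change of sign) and GATA 42.9% (-3.63 points against regions with HE and HP but no HB, a change of sign). With each list cut to its widest sites, the number was 534, MAC 25.8%, promoters 31.8% (-7.96 points against regions with HB and HE but no HP), CpG-rich 21.5%, RUNX 33.5%, AP1 24.45% and the paired pattern 13.2%. The difference of members with minus without MAC was then -10.99 points for TEAD and -1.86 for the pair, and for TEAD it was -5.67 points with the deposited intervals. All annotated TSSs gave 29.96% promoters, and the stricter CpG definition 9.47% CpG-rich. In the central 200 bp, GATA was in 28.2%, TEAD in 20.8%, RUNX in 18.7%, AP1 in 14.8%, the pair in 5.87% and PU.1 in 3.49%. Members near Hippo and TEAD genes numbered 1 without the narrower sites, 3 with the widest sites and 4 within 20 kb of any coding TSS, those near any gene 524, 475 and 491, and those of the TAL1 complex 3 without promoters. The band of GC share, the pairwise overlap of windows and the removal of promoter members were chosen after seeing the data. No paired analysis was possible because each stage has 1 list. Depth was not taken into account, so a site missing from a list may lie under its threshold.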

Other observations

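The gap of the paired pattern was examined base by base, a choice made after the counts were seen. Among the 716 members over 2 kb from a TSS, CTG preceded AGATAA by 8 bases in 5.87% (42 members, interval 4.37 to 7.83), by 7 bases in 3.77% and by 9 bases in 1.54%, and every other gap from 0 to 15 bases lay between 1.26% and 3.63%. With GTC in place of CTG, a gap of 8 bases was found in 0.698%. At 8 bases the share was 5.90% in regions with HE and HP but no HB, 2.36% in regions with HB and HE but no HP, 0.710% in regions with MES and 1.43% in all regions.

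The promoters of the genes nearest to members were compared with those nearest to other regions. Of 564 genes assigned to non-promoter members, 68.4% (interval 64.5 to 72.1) had a MES site within 1 kb of a TSS, 73.0% (69.2 to 76.5) an HB, 78.0% (74.4 to 81.2) an HE, 62.9% (58.9 to 66.8) an HP and 59.6% (55.5 to 63.5) a MAC site. For the 12276 genes nearest to any non-promoter region these shares were 65.8%, 67.9%, 70.99%, 56.8% and 56.4%, so that those of HB, HE and HP lay below the intervals of the members and those of MES and MAC within them. In the sets that differ from the members in 1 stage, the HB shares were 71.7% to 75%, the HE shares 74.97% to 79.7% and the HP shares 61.01% to 63.6%. The MES share was 69.2% for regions with MES, 70.9% for regions with HE and HP but no HB and 72.8% for regions with HB and HE but no HP, and for all 21000 genes it was 55.97%.

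The median distance to the nearest other member was 403.8 kb, and 217 members had another within 100 kb. These distances were not compared with those of other sets or of randomly placed regions. Of the 716 non-promoter members, 151 (21.1%) held none of the GATA, TEAD and RUNX consensus sequences, against 32.5% of all such regions, and 54 (7.54%) held all 3, against 3.06%.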
